A study of Mus musculus with 12 samples.

Results

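H3K27ac at NF-kB and chemokine genes was compared between Cox10-/- and wild-type regenerating mouse liver. The genes were Tnfrsf1a, Rela, Nfkb1, Relb, Nfkb2, Nfkbia, Tnfaip3, Icam1, Cxcl1 and Ccl2, and their regions were taken as those that carry one of these names in the gene name column of the deposited table. Of 36387 acetylated regions on 19 chromosomes, 52 were chosen in this way, and they belonged to 9 of the 10 genes. The table splits them by position into 23 promoter regions (within 1 kb of a start site), 2 promoter flanks, 1 region in a 3' UTR and 26 distal intergenic regions. Nfkbia had 20 regions, Cxcl1 12, Tnfaip3 5, Nfkb2 4, Icam1 3, Tnfrsf1a 3, Nfkb1 2, Rela 2 and Relb 1. A region bears a gene's name because of where it lies, and need not act on that gene.

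The series holds 12 libraries, of which 3 H3K27ac libraries of Cox10-/- liver and 3 of wild-type liver were used. Mice of both genotypes carried a floxed allele of Cox10, which encodes an enzyme that makes heme A for cytochrome c oxidase. The Cox10-/- mice had received AAV8-Cre, a liver-tropic virus that carries Cre recombinase, and the wild-type mice AAV8-GFP, each by injection behind the eye 4 weeks before surgery. All had 70% of the liver removed, and the remnant was taken on day 2. What promoter drives Cre, and the strain, sex and age of the mice, are not given here. The labels number the replicates without saying that each is a separate animal, so the spread between these libraries may be technical. The p-values rest on this spread, with the variance of each region drawn by limma toward a trend over all regions. Between pairs of libraries, the chi-square of the reads per degree of freedom was 1.062 to 1.115 for Cox10-/- and 1.161 to 1.188 for wild type. This spread is only slightly above that of read counting alone. Whether the replicates are separate animals was not tested.

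NF-kB is a family of dimeric transcription factors built from Rel proteins. In resting cells IkB proteins hold them in the cytoplasm, and signals such as TNF, interleukin 1 or bacterial products activate a kinase complex that has IkB destroyed, so that the dimers enter the nucleus and bind their sites at genes of inflammation, survival and their own inhibitors. In the liver, TNF from Kupffer cells acting through the type 1 TNF receptor on hepatocytes is known to start NF-kB activity soon after partial hepatectomy. H3K27ac, acetylation of lysine 27 of histone H3, is found at active promoters and enhancers.

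The promoter sequences of the genes differ in whether they hold a match to the NF-kB consensus, and the stretch just before the start site is shown for the 4 genes that hold one or more there and for Icam1, whose acetylation was the furthest below wild type of the 9 genes and whose window holds none. The windows of Tnfrsf1a and Rela hold none either and are not shown. Each line gives 130 bases, 5′ to 3′ on the strand of the gene, that end at the base before the RefSeq start site (GRCm38.p6, the assembly that mm10 names), and capitals mark matches to the consensus.
Cxcl1, chr5:90891115-90891244, plus strand: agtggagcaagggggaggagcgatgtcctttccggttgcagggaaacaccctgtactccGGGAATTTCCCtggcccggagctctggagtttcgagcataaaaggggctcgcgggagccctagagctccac
Nfkbia, chr12:55492648-55492777, minus strand: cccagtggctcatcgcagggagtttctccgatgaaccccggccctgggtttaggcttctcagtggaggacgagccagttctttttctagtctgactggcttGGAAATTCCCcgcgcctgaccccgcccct
Tnfaip3, chr10:19015411-19015540, minus strand: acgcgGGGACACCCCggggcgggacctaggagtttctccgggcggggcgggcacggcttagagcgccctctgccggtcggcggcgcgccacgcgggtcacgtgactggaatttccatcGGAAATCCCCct
Nfkb2, chr19:46304607-46304736, plus strand: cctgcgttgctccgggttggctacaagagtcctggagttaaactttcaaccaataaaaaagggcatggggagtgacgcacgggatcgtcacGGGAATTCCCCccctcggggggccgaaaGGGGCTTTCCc
Icam1, chr9:21015810-21015939, plus strand: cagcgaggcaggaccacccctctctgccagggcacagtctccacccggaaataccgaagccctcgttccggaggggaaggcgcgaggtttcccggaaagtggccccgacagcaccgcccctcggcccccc

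Matches were sought on both strands of RefSeq windows from 250 bases before to 50 bases after each start site. Of the 10 genes 7 had a window, and these had 10 windows in all; Nfkb1, Relb and Ccl2 were not searched. The NF-kB consensus was found in 6 of the 10 windows, against 8.46% of all 32851 windows of 300 bases, and in 4 of the 7 genes, against 9.55% of all 27025 genes with a window. The genes include some known to carry NF-kB sites, so this contrast follows in part from their choice and is not a test of enrichment. At Cxcl1 the match lay 71 to 61 bases before the start site, inside the strongest promoter region of the gene. At Nfkbia it lay 29 to 20 bases before the start site, between 2 acetylated regions, 83 bases from the one and 128 bases from the other. At Tnfaip3 the matches lay 125 to 116 and 12 to 3 bases before the start site, and at Nfkb2 39 to 29 and 11 to 2 bases before it, also between acetylated regions. A further Nfkb2 window, with its start site at 46305695, held 1 match inside the strongest promoter region of that gene, 236 to 227 bases before that start site. Another match, on chromosome 19 from 46305705 to 46305714 and between acetylated regions, falls in both this window and the next Nfkb2 window, with its start site at 46305930, so these 2 of the 6 windows share a match. These are matches of letters and not measured binding sites. The lack of one at Icam1, Tnfrsf1a and Rela says only that these letters are not in their windows. The strongest promoter regions of these genes changed by -1.87, -0.86 and -0.79 (log2, deposited scale), in that order, and a link between matches and changes was not tested.

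The 6 libraries held 3282878 to 3385453 reads in the regions for Cox10-/- and 3897454 to 4187377 for wild type, and the regions described here held 7 to 810 reads per library. Values are the authors' normalised reads, that is, reads divided by 1 size factor per library. Size factors were 1.18, 1.24 and 1.32 for Cox10-/- and 0.752, 0.730 and 0.782 for wild type, so on the deposited scale the sum over all regions was 2675320 ± 167099 in Cox10-/- and 5398380 ± 92959.9 in wild type (SD, n = 3 each), 2.02-fold lower. The median region of all was 1.04 lower on the log2 scale. A second scale, centred on the median region of each library, therefore adds 1.05 (log2) to every change and says where a region moved relative to the rest. Spike-in chromatin was added, per the labels' protocols, but no source used here says whether the size factors come from it. Cox10 itself had 1 region, in an intron, which held 60.3, 46.0 and 65.9 normalised reads in Cox10-/- and 14.6, 17.8 and 12.8 in wild type; intronic acetylation says nothing of whether the gene was cut. In whole liver, fewer cells of a type and less of the mark per cell cannot be told apart.

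Most NF-kB and chemokine regions had less H3K27ac in Cox10-/- liver, as most regions of the genome had. On the deposited scale 42 of the 52 were lower, 3 were higher and 7 were not called (limma on log2(value + 1), Benjamini-Hochberg adjusted p under 0.05 over all regions). Over all regions 87.2% were lower and 4.46% higher, and the 52 were thus near the background, with 80.8% and 5.77%. Their median change was -0.82 (log2), 1.76-fold lower, against -1.04 for all regions. Every Cox10-/- library lay below every wild-type library at 40 of the 52 and above at 5, while at 7 the genotypes overlapped; the shares over all regions were 86.4% below and 4.44% above. On the centred scale 8 were lower and 23 higher, 15.4% and 44.2%, against 32.4% lower and 33.6% higher over all regions.

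Promoter and distal regions of these genes differed in their counts. At promoters 22 of the 23 regions were lower on the deposited scale and the other was not called, where 92.3% of all 15980 promoter regions were lower and 1.26% higher. Their median was -1.08, against -0.87 for all promoter regions. On the centred scale 6 promoter regions were lower and 7 higher, against 18.9% lower and 42.2% higher of all promoter regions. Of the 26 distal intergenic regions, 17 were lower, 3 higher and 6 not called on the deposited scale, where 83.2% of all 6445 such regions were lower and 6.9% higher. Their median was -0.63, against -1.23 for all distal intergenic regions. On the centred scale 2 were lower and 14 higher, 7.69% and 53.8%, against backgrounds of 41.9% lower and 28.8% higher. All but 1 of the 26 lie around Nfkbia or Cxcl1, so they stand for 2 loci and not for 26 separate observations.

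**Figure D1:**
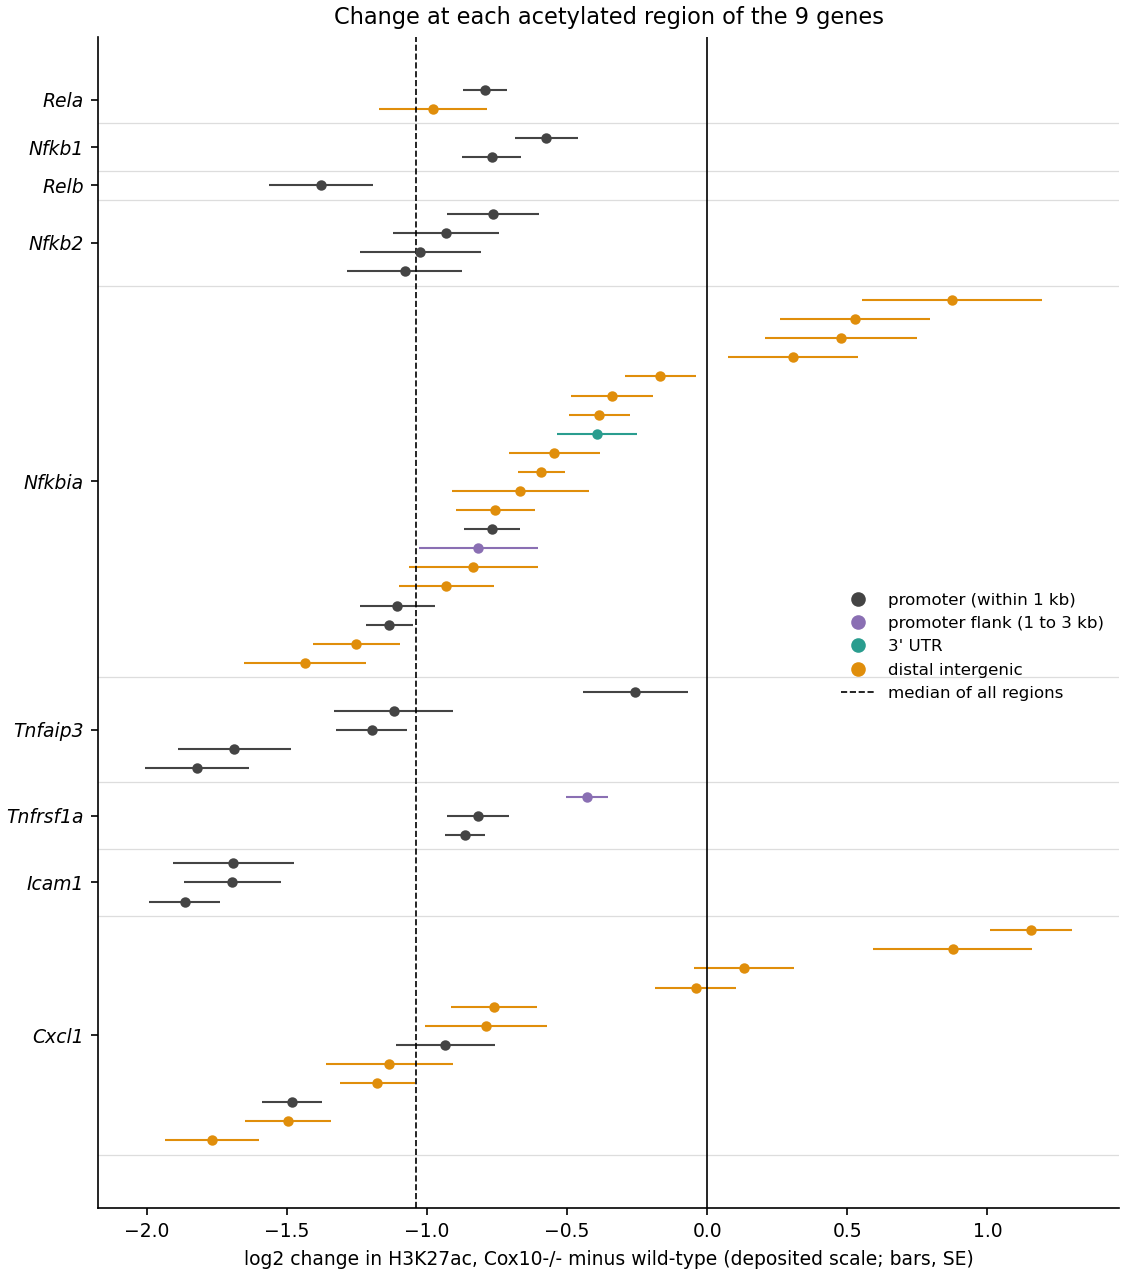
Change in H3K27ac at each of the 52 regions on the deposited scale, as the log2 difference of Cox10-/- minus wild type on the horizontal axis, with bars of 1 SE from limma (3 libraries per genotype). Regions are grouped by gene and coloured by their place, and the dashed line marks the median of all regions at -1.04. The points right of 0 belong to distal intergenic regions of Nfkbia and Cxcl1.

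Tnfrsf1a, the type 1 TNF receptor, was the most strongly acetylated of the 9 genes by the signal in 1 region. Its main promoter region, on chromosome 6 from 125349757 to 125352500, held 606, 554 and 545 normalised reads in Cox10-/- and 1022, 1045 and 1035 in wild type. The genotypes did not overlap, and the region fell 1.82-fold (log2 -0.86, SE 0.07, adjusted p = 5.59e-25). Relative to the median region it was higher by 0.19 (adjusted p = 2.28e-04). The region that follows it in the gene, from 125352688 to 125356060 and labelled a promoter flank, held 595, 600.5 and 500.0 normalised reads in Cox10-/- and 754, 771 and 752 in wild type. It was also lower in every Cox10-/- library, by 1.35-fold (log2 -0.43, SE 0.08, adjusted p = 6.58e-08), and was higher on the centred scale by 0.62 (adjusted p = 5.17e-19). The remaining region, just before the start site, was -0.82 on the deposited scale and 0.23 on the centred one, so the 3 regions of the receptor gene were all lower on the deposited scale and all higher on the centred scale.

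Rela encodes the p65 subunit, which carries the activation domain of the common NF-kB dimer. Its promoter region, on chromosome 19 from 5636708 to 5638726, held 404, 416 and 407 normalised reads in Cox10-/- and 674, 767 and 690.2 in wild type. All Cox10-/- libraries lay lower and close together, with means of 409 ± 6.66 in Cox10-/- and 711 ± 49.5 in wild type (SD, n = 3 each). The region fell 1.73-fold (log2 -0.79, SE 0.08, adjusted p = 3.37e-19) and on the centred scale was 0.26 higher (adjusted p = 5.08e-05). Rela also had a weak distal region, 11.67 kb past its start site, with 35.7, 35.5 and 25.8 normalised reads in Cox10-/- and 59.9, 71.2 and 61.3 in wild type. It was lower in each Cox10-/- library, 1.97-fold (log2 -0.98, SE 0.19, adjusted p = 1.20e-06), and was not called on the centred scale (0.07, adjusted p = 0.733).

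Nfkb1, which encodes p105 and its product p50, the usual partner of p65, had 2 promoter regions. The stronger, on chromosome 3 from 135690325 to 135691204, held 167, 159 and 140.2 normalised reads in Cox10-/- and 295, 236 and 267 in wild type. The groups did not overlap and the region fell 1.70-fold (log2 -0.77, SE 0.11, adjusted p = 1.13e-11). Centred on the median region it was 0.28 higher (adjusted p = 0.00356), a call that was lost without wild-type replicate 2 (0.21, adjusted p = 0.0551). The second region changed by -0.57 on the deposited scale and was 0.48 higher on the centred one.

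Relb and Nfkb2 encode the Rel subunits of the alternative pathway, which acts downstream of receptors such as the lymphotoxin beta receptor. The single region of Relb, at its promoter on chromosome 7 from 19629067 to 19629344, held 28.0, 29.1 and 31.8 normalised reads in Cox10-/- and 85.1, 76.7 and 74.1 in wild type. Cox10-/- values lay well below wild-type values and the region fell 2.60-fold (log2 -1.38, SE 0.19, adjusted p = 5.47e-12), while its centred change of -0.33 was not called (adjusted p = 0.0967). The strongest of the 4 Nfkb2 promoter regions, on chromosome 19 from 46305249 to 46305593, held 51.0, 52.5 and 42.4 normalised reads in Cox10-/- and 86.5, 79.4 and 83.1 in wild type. It fell 1.70-fold without overlap (log2 -0.76, SE 0.16, adjusted p = 6.65e-06), and its centred change of 0.29 was not called (adjusted p = 0.0867). All 4 Nfkb2 regions fell on the deposited scale, by -1.08 to -0.76, and their centred changes, -0.03 to 0.29, were not called.

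**Figure D2:**
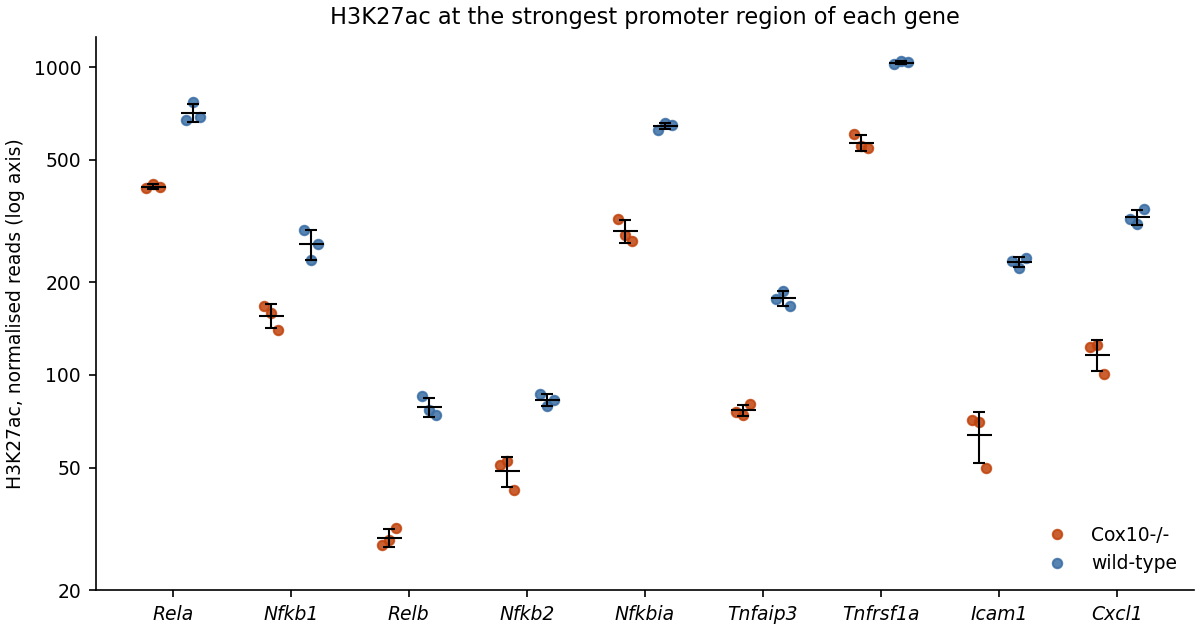
Normalised reads at the promoter region of highest mean signal of each of the 9 genes, on a log axis, with 1 point per library and bars of the mean ± SD (n = 3 per genotype). At all 9 the Cox10-/- points lie below the wild-type points; the gap is widest at Icam1, with 50 to 71.4 in Cox10-/- and 223 to 240.3 in wild type.

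Nfkbia encodes IkB-alpha, the inhibitor that NF-kB itself induces. Its strongest promoter region, on chromosome 12 from 55490177 to 55491830, held 321, 286 and 273 normalised reads in Cox10-/- and 627, 657 and 647 in wild type. The genotypes did not overlap and the region fell 2.20-fold (log2 -1.13, SE 0.08, adjusted p = 7.29e-30), close to the median region, with a centred change of -0.08 that was not called (adjusted p = 0.225). The other 2 promoter regions changed by -1.11 and -0.77. The 15 distal intergenic regions, all downstream of the gene at 4.46 to 33.51 kb from its start site, had a median change of -0.55, and on the centred scale 10 of them were higher and the other 5 were not called.

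The broadest of these downstream regions, at 17.5 to 19.96 kb from the start site (chromosome 12 from 55472686 to 55475150), held 431, 399 and 333 normalised reads in Cox10-/- and 596, 537 and 615 in wild type. Every Cox10-/- library was lower, and the fall was 1.51-fold (log2 -0.59, SE 0.08, adjusted p = 2.72e-11), less than at the promoter. On the centred scale it was 0.46 higher (adjusted p = 1.93e-10). The 3 most distant regions, 30.94 to 33.51 kb away, went the other way on the deposited scale as well: every Cox10-/- library lay above every wild-type library in each. The farthest held 31.4, 29.1 and 18.9 normalised reads in Cox10-/- and 9.31, 16.4 and 16.6 in wild type and rose 1.83-fold (log2 0.87, SE 0.32, adjusted p = 0.00797). This region rests on few reads, and its call was lost without Cox10-/- replicate 1 (0.74), Cox10-/- replicate 2 (0.79) or wild-type replicate 1 (0.62). The other 2 had changes of 0.53 and 0.48 that were not called on the deposited scale and were higher on the centred scale. Beside the broadest region, a region at 17.18 kb changed by 0.31. There the genotypes overlapped, the change was not called, and the region was higher on the centred scale by 1.36.

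**Figure D3:**
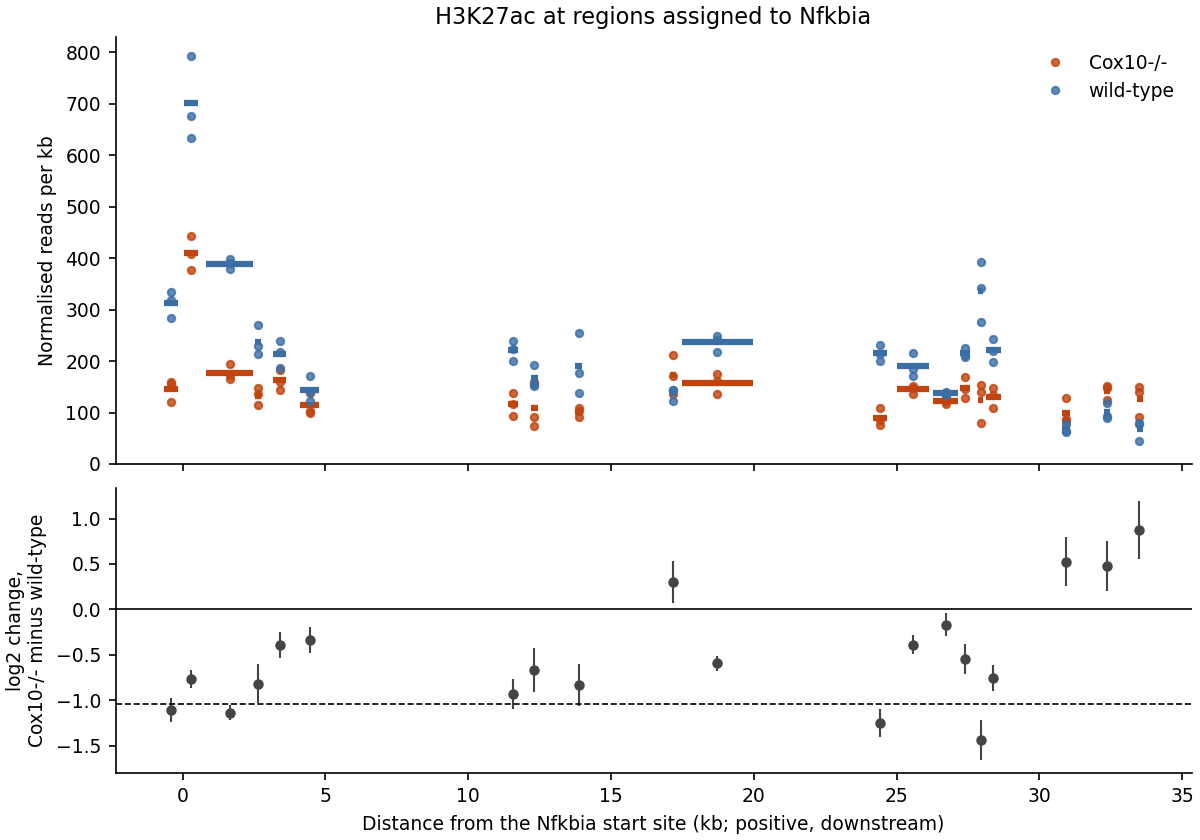
H3K27ac along the Nfkbia locus, with distance from the start site in kb on the horizontal axis. In the upper panel horizontal bars are region means drawn over the width of each region and points are the 6 libraries, in normalised reads per kb; in the lower panel points are log2 changes with bars of 1 SE, and the dashed line is the median of all regions. Changes at the 3 promoter regions run from -1.13 to -0.77. Those of the 3 regions beyond 30.78 kb lie above 0, and of these only the farthest was called. The change of a region at 17.18 kb also lies above 0 and was not called.

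Tnfaip3 encodes A20, a ubiquitin-editing enzyme that NF-kB induces and that shuts its signalling off. The strongest of its 5 promoter regions, on chromosome 10 from 19014766 to 19015367, held 75.6, 74.3 and 80.3 normalised reads in Cox10-/- and 177, 188 and 167 in wild type. It fell 2.29-fold with wide separation of the genotypes (log2 -1.20, SE 0.13, adjusted p = 1.68e-17), and its centred change of -0.14 was not called (adjusted p = 0.263). A region inside the gene, 6.04 to 6.4 kb past the outermost RefSeq start site, held 28.9, 21.0 and 27.3 normalised reads in Cox10-/- and 94.5, 101 and 83.1 in wild type. The table calls it a promoter although it is far from that start site. A second RefSeq start site of the gene, at 19011963, lies nearer but is also more than 1 kb away. Another region labelled a promoter lies 6.48 to 6.71 kb past the outermost start site (log2 -1.12). Both are kept in the promoter counts. The region at 6.04 to 6.4 kb fell 3.54-fold (log2 -1.82, SE 0.19, adjusted p = 1.64e-18). It was lower on the centred scale as well (-0.77, adjusted p = 1.15e-04). Just before the outermost start site, at 0.21 to 0.5 kb, the pattern differed. There the values were 38.2, 42.8 and 51.5 normalised reads in Cox10-/- and 46.6, 64.4 and 48.6 in wild type; the genotypes overlapped, the change of -0.26 was not called, and on the centred scale the region was higher by 0.80. The 5 regions thus ranged from -1.82 to -0.26, with members called in both directions on the centred scale.

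Icam1, an adhesion molecule that binds leukocyte integrins and a classic NF-kB target, stood furthest below wild type. Its main promoter region, on chromosome 9 from 21015521 to 21016362, spans the start site shown above and held 71.4, 70.2 and 50 normalised reads in Cox10-/- and 234, 223 and 240.3 in wild type. With means of 63.9 ± 12.0 in Cox10-/- and 233 ± 8.63 in wild type (SD, n = 3 each), it fell 3.64-fold (log2 -1.87, SE 0.13, adjusted p = 1.24e-33). Of all promoter regions 7.09% fell this far or further. The flanking promoter regions changed by -1.69 each, and all 3 Icam1 regions were lower on the centred scale too, by 0.81 to 0.64. The strongest region there had a centred change of -0.81 (SE 0.11, adjusted p = 2.22e-09).

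Cxcl1 encodes a neutrophil-attracting chemokine that binds the receptor Cxcr2, and its regions moved in opposite directions. The main promoter region, on chromosome 5 from 90891161 to 90892356, which holds the consensus match, had 123, 125 and 101 normalised reads in Cox10-/- and 321, 309.5 and 346 in wild type. It fell 2.79-fold without overlap (log2 -1.48, SE 0.11, adjusted p = 5.90e-31) and was lower on the centred scale (-0.43, adjusted p = 2.15e-05). The smaller promoter region fell by 0.94 on the log2 scale and was not called after centring.

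The 10 distal intergenic regions of Cxcl1 lie upstream, with centres 19.15 to 5.69 kb before the start site, and their changes run from -1.77 to 1.16. A region 15.94 to 15.1 kb upstream, on chromosome 5 from 90875305 to 90876141, held 138, 125 and 108 normalised reads in Cox10-/- and 66.5, 53.4 and 46.0 in wild type. All Cox10-/- libraries were above all wild-type libraries, and the region rose 2.23-fold (log2 1.16, SE 0.15, adjusted p = 4.27e-13), or by 2.21 relative to the median region. This was the highest change among the 52 regions, and 2.73% of all distal intergenic regions changed as much or more. Its neighbour, 16.56 to 16.31 kb upstream, held 29.7, 36.3 and 30.3 normalised reads in Cox10-/- and 27.9, 15.1 and 11.5 in wild type and rose with no overlap (log2 0.88, SE 0.28, adjusted p = 0.00258).

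Within the same 20 kb other regions fell. A region 18.36 to 17.95 kb upstream held 35.7, 40.4 and 23.5 normalised reads in Cox10-/- and 109, 118 and 111 in wild type, a fall of 1.77 on the log2 scale (SE 0.17, adjusted p = 2.08e-20) that held on the centred scale (-0.72, adjusted p = 7.34e-05). Nearest to the gene, at 6.05 to 5.33 kb upstream, the values were 76.5, 68.6 and 56.8 normalised reads in Cox10-/- and 158, 152 and 147 in wild type. That region fell 2.26-fold (log2 -1.18, SE 0.13, adjusted p = 1.69e-15), near the median region (centred change -0.12, adjusted p = 0.367). Of the remaining 6 distal regions 4 fell, and 2, at 14.28 and 10.3 kb, had changes of -0.04 and 0.13 that were not called and were higher on the centred scale.

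**Figure D4:**
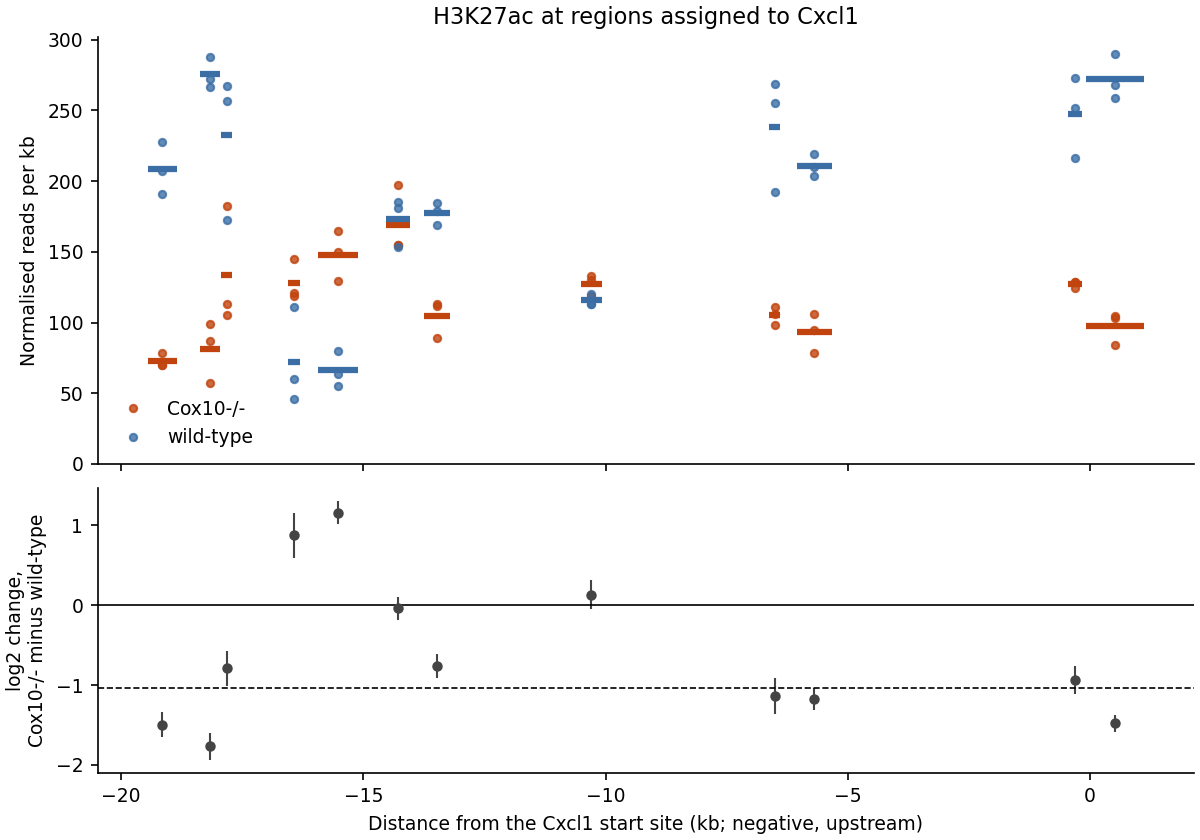
H3K27ac along the Cxcl1 locus, with distance from the start site in kb on the horizontal axis. In the upper panel horizontal bars are region means drawn over the width of each region and points are the 6 libraries, in normalised reads per kb; in the lower panel points are log2 changes with bars of 1 SE, and the dashed line is the median of all regions. The 2 regions near -16 kb rose in Cox10-/-, and the regions farther upstream fell. On the gene side the next region, at -14.28 kb, was not called (-0.04), and the one after it, at -13.47 kb, fell.

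Ccl2, which encodes the main chemokine for monocytes, had no region under its name. The RefSeq gene lies on chromosome 11 from 82035577 to 82037452, and the nearest region in the table, named for Gm17268, is 15.7 kb away. Its acetylation was therefore not measured by these values.

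Nfkbia, Cxcl1, Tnfrsf1a and Rela had regions both at the promoter and elsewhere, and the ratio of the reads elsewhere to the reads at the promoter does not depend on how libraries are scaled against each other. The test of this ratio was chosen after seeing the data and was run with limma over the 3665 genes that have both kinds of region. For Cxcl1 the log2 ratio was 1.81, 1.80 and 1.82 in Cox10-/- and 1.06, 0.99 and 0.92 in wild type, a separation of 0.82 (SE 0.07, adjusted p = 5.47e-05). Regions away from the promoter held 77.9% ± 0.13 of its signal in Cox10-/- and 66.5% ± 1.04 in wild type (SD, n = 3 each). For Nfkbia the ratio was 1.16, 1.17 and 1.17 in Cox10-/- and 0.67, 0.56 and 0.77 in wild type, higher by 0.50 (SE 0.08, adjusted p = 0.00102), and for Tnfrsf1a it was higher by 0.43 (SE 0.09, adjusted p = 0.00385). At Rela it changed by -0.18 (SE 0.18), was not called (adjusted p = 0.41) and overlapped between genotypes. Over all 3665 genes the ratio was higher in 21.7% and lower in 39.3%, with a median of -0.17 and quartiles at -0.62 and 0.26.

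**Figure D5:**
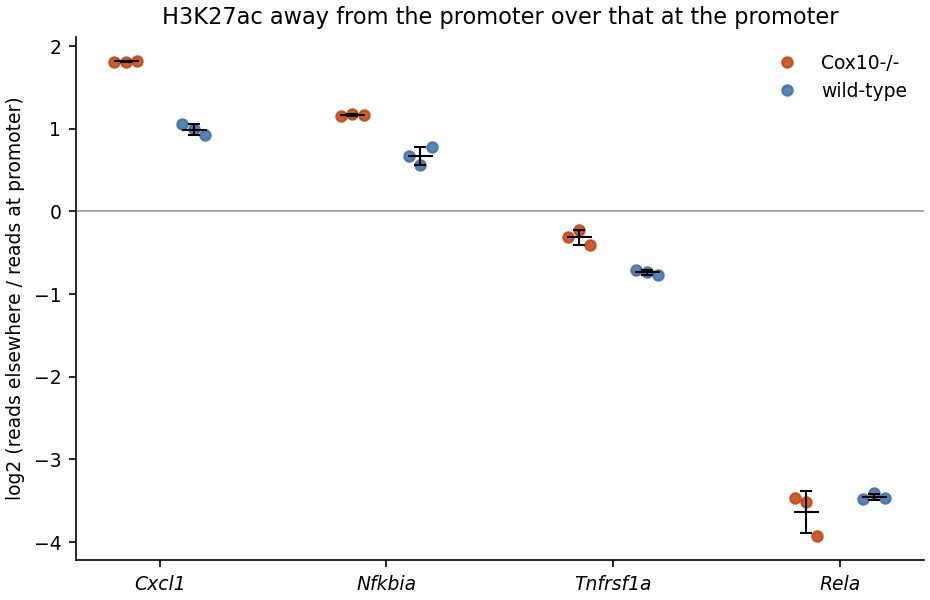
Log2 ratio of the reads in regions elsewhere to the reads in promoter regions, for the 4 genes with both kinds, with 1 point per library and bars of the mean ± SD (n = 3 per genotype). Cox10-/- lies above wild type without overlap at Cxcl1, Nfkbia and Tnfrsf1a, and the genotypes overlap at Rela.

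Levels per kb at the promoter region with the most reads over its whole width put the genes in a different order in the 2 genotypes. The order depends on the region chosen. At Nfkbia a narrower promoter region, from 55492116 to 55492584, held 410 normalised reads per kb in Cox10-/- and 701 in wild type. Taken by that region, Nfkbia would head both orders. The orders given here keep the region with the most reads. In Cox10-/- liver the order was Tnfrsf1a (207 ± 12.0 normalised reads per kb, SD, n = 3), Rela (203 ± 3.30), Nfkbia (177 ± 15.2), Nfkb1 (177 ± 15.9), Nfkb2 (141 ± 15.7), Tnfaip3 (128 ± 5.28), Relb (107 ± 7.06), Cxcl1 (97.4 ± 11.3) and Icam1 (75.9 ± 14.3). In wild-type liver it was Nfkbia (389 ± 9.47), Tnfrsf1a (377 ± 4.27), Rela (352 ± 24.5), Nfkb1 (303 ± 34.0), Tnfaip3 (295 ± 16.8), Relb (284 ± 20.8), Icam1 (277 ± 10.3), Cxcl1 (272 ± 15.8) and Nfkb2 (241 ± 10.2). Neighbours whose libraries did not overlap were Rela and Nfkbia, Nfkb1 and Nfkb2, and Tnfaip3 and Relb in Cox10-/-, and Cxcl1 and Nfkb2 in wild type. All other neighbours overlapped.

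Other genes of the pathway were taken from 5 lists with 104 genes, each by its strongest promoter region or, with none, its strongest region, and 57 had one. On the deposited scale 55 of the 57 were lower and the other 2, Tlr4 and Tab3, were not called, with a median of -0.86; over all 11240 genes taken the same way 92.4% were lower and 1.69% higher, with a median of -0.84. On the centred scale 10 were lower and 24 higher (median 0.19), where 19.3% of all genes were lower and 46.5% higher (median 0.21). The pathway as a whole was thus near the background on both scales. The counts of each list follow, and differences between lists were not tested.

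Of 30 receptors and adaptors 19 had a region, and on the centred scale 1 was lower and 10 higher (median 0.20). The lower one was Il1r1, the interleukin 1 receptor, with 185 ± 13.3 normalised reads in Cox10-/- and 614 ± 61.9 in wild type (SD, n = 3 each; log2 -1.72 on the deposited scale). Tlr4, the lipopolysaccharide receptor, held 59.5 ± 4.44 in Cox10-/- and 60.2 ± 7.54 in wild type, a deposited change of -0.01 that was not called and a centred one of 1.04. Irak4, a kinase of the receptor complex, and Tab2, an adaptor of the kinase TAK1, were higher on the centred scale by 0.55 and 0.43 and lower on the deposited scale by 0.51 and 0.63. Of 12 IKK, other Rel and IkB genes 9 had a region and all 9 fell on the deposited scale (median -0.93), while on the centred scale 1 was lower and 2 higher. Ikbke, an IKK-related kinase, fell most of the named ones, with 132 ± 7.78 in Cox10-/- and 461 ± 35.0 in wild type (log2 -1.79), and was lower on the centred scale too. Ikbkb, the catalytic IKK subunit of the classical pathway, and Tank, a binding partner of TRAF proteins, had deposited changes of -0.72 and -0.59 and were higher on the centred scale.

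Of 12 further brakes on NF-kB 11 had a region, and all 11 fell on the deposited scale (median -0.83), while on the centred scale 6 were higher and 1 lower. The lower one was Otulin, which removes linear ubiquitin chains (deposited change -1.44). Tnip1, a partner of A20, Otud7b, a deubiquitinase, and N4bp1 had deposited changes of -0.40, -0.54 and -0.60 and were higher on the centred scale by 0.65, 0.51 and 0.46. Among 29 other chemokines and cytokines only 7 had a region, and the 22 without one included Cxcl2, Cxcl5, Cxcl10, Ccl5, Ccl7 and Il6. The 7 all fell on the deposited scale (median -1.13), while on the centred scale 3 were lower and 1 higher. Cxcl12, a chemokine that binds Cxcr4, held 98.8 ± 7.49 normalised reads in Cox10-/- and 556 ± 19.3 in wild type (log2 -2.48). Ccl9 and Lif fell by 2.22 and 2.35 (log2), and all 3 were lower on the centred scale as well. Csf1, the macrophage growth factor, fell by 0.66 on the deposited scale and was higher by 0.40 on the centred one (adjusted p = 2.19e-04).

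Among 21 adhesion and other targets, 11 had a region and all fell on the deposited scale (median -0.83), while on the centred scale 4 were lower and 5 higher. Saa3, a serum amyloid A gene of the acute phase, was represented by a weak distal region with 7.78 ± 1.04 in Cox10-/- and 60.6 ± 15 in wild type (SD, n = 3 each; log2 -2.79). Tnfaip2 and the transcription factor Irf1 changed by -1.97 and -1.42. The survival genes Bcl2l1, which encodes Bcl-xL, and Cflar, which encodes c-FLIP, changed by -0.67 and -0.69, and Ier3 by -0.23. These 3 were higher on the centred scale by 0.38, 0.37 and 0.83. Vcam1, another adhesion molecule in this list, was named after its values were seen. It changed by -0.86 and was not called on the centred scale. Icam2 is in this list too and had no region.

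Markers of the cell types that make or answer NF-kB signals in liver were measured beside these results. Macrophage and Kupffer cell markers had a region in 3 of 17 genes, with a summed level of 408 to 455 normalised reads in Cox10-/- and 366 to 404 in wild type. The 3 did not move together on the deposited scale. Cd14, a lipopolysaccharide co-receptor, was higher, with 314 ± 28.3 in Cox10-/- and 140.4 ± 1.26 in wild type (SD, n = 3 each; log2 1.15). Cx3cr1, the fractalkine receptor, named after its values were seen, was lower, with 86.8 ± 11.8 in Cox10-/- and 204.6 ± 16.7 in wild type (log2 -1.23, adjusted p = 1.85e-19). Cd68 was not called (log2 -0.09), and no region was listed for Clec4f, Adgre1 or Csf1r. Neutrophil markers had 1 of 8, Elane by a promoter flank, with 5.65 to 11 in Cox10-/- and 46.0 to 55.9 in wild type, and none for S100a8, Ly6g or Cxcr2. Lymphocyte markers had 2 of 9, Cd4 by an intron region and Klrb1c by a distal intergenic one, with 157 to 189 in Cox10-/- and 481 to 501 in wild type. Endothelial markers had 3 of 9, with 137 to 191 in Cox10-/- and 214 to 250.1 in wild type, and none for Cdh5 or Kdr. Stellate markers had 1 of 8, with 31.8 to 49.2 in Cox10-/- and 66.5 to 105 in wild type, and biliary markers 2 of 6, with 82.6 to 97.7 in Cox10-/- and 97.2 to 118 in wild type. No neutrophil, lymphocyte or stellate marker had a promoter region, so their values come from regions that bear the gene's name by position and need not act on it. Hepatocyte markers, which check the tissue label, had regions in 9 of 9 genes and summed to 1671 to 1977 in Cox10-/- and 6039.8 to 6220.5 in wild type. All 9 were lower on the deposited scale, where 92.4% of all 11240 genes taken the same way were lower. On the centred scale 8 were lower and 0 higher, against 19.3% and 46.5% of all genes. Of the other markers, 2 macrophage genes (Cd14, 2.20, and Cd68, 0.96) were higher on that scale. So were 1 endothelial gene (Pecam1, 0.81) and 2 biliary genes (Epcam, 0.80, and Sox9, 0.88). The 1 neutrophil gene and the 2 lymphocyte genes were lower, and the rest were not called. The part of cell numbers in the changes at Icam1, Cxcl1 or the other genes was not tested.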

How the data were processed

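H3K27ac ChIP-seq was done on whole regenerating liver, and spike-in chromatin was added, per the labels' protocols. The submitters' processing notes name BWA 0.7.5, MACS, deepTools 3.5.0 and mm10, without their settings. The authors deposited 1 table of regions with a normalised read signal per library, a log2 fold change, a test score and p-values. Each deposited signal was a whole number of reads (100% within 0.01) divided by 1 size factor per library; no source used here gives the origin of these factors. Coordinates are as deposited, and whether they count from 0 or 1 is not stated. Input libraries were not used, and 18 autosomes are covered; chromosome 16 is not analysed here. Of 36446 rows, 59 repeats were dropped. limma 3.58.1 (R 4.3.3, trend) was fitted to log2(value + 1) of 3 libraries per genotype with no filter, which understates changes of weak regions. The p-values were adjusted over all regions. The fit was also run on simulated counts in which far fewer regions changed than were called here. That run therefore cannot give error rates for these data. Alternatives used other pseudocounts, filters, scalings, thresholds, a replicate block, left-out libraries, count models of the recovered reads (DESeq2 1.42.0, edgeR 4.0.16), and the authors' table. Genes and lists were chosen with earlier results of these data known. Regions named in full were, per gene, the strongest promoter region and the strongest elsewhere, plus the 3 highest and 3 lowest changes; of each pathway list up to 3 genes per direction by the smallest centred adjusted p, and of marker lists up to 2.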

Additional observations from a re-analysis of the deposited data

How the results depend on the processing

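Centring decides most calls. On the deposited scale 31719 regions were lower and 1622 higher; centred on the median region, 11800 and 12224, and with edgeR and TMM scaling, 12164 and 12145. Of the 52 regions, 42 lower and 3 higher became 8 and 23 with either, and of the 57 pathway genes the lower ones became 10 with either and the higher ones 24 when centred and 25 with TMM. Changes that turned positive, centred and then with TMM, were 0.46 and 0.46 (Nfkbia, 55472686 to 55475150), 0.29 and 0.28 (Nfkb2 promoter), 0.26 and 0.26 (Rela promoter), 0.074 and 0.059 (Rela distal), 0.28 and 0.27 (Nfkb1), 0.19 and 0.19 (Tnfrsf1a promoter) and 0.62 and 0.62 (Tnfrsf1a flank); both settings remove the common shift by construction. A mean signal of at least 50, chosen after seeing the data, left 33 of the 52 regions, of which 1 was higher, and 573 higher over all; it leaves fewer regions. A minimum of 10 removed no region. The directions of all 18 regions named in full were the same under edgeR and DESeq2 with the deposited scaling, other pseudocounts and the authors' table. The relation of regions elsewhere to promoter regions kept its call at Cxcl1, Nfkbia and Tnfrsf1a under all its alternatives.

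Replicate numbers did not pair the libraries: deviations of same-numbered libraries correlated at -0.0009, 0.0074 and 0.0054. A replicate block gave 31755 lower and 1634 higher over all regions, and 42 and 3 of the 52 (8 and 23 centred), and it changed no call of a region named in full.

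Reads limit the weakest regions, of which the lowest held 7 reads in a library. SDs are those of 3 libraries. SEs and p-values from limma also rest on the variance trend over all regions, or over all genes for the ratio.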
